A study of Mus musculus with 6 samples.

Results

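Potassium channels let potassium ions leave the cell down their gradient, which sets the resting potential of heart cells and ends each action potential. Most pores are built from alpha subunits that open with voltage, while inward rectifiers and two-pore channels carry current near the resting potential and auxiliary subunits tune the pores they bind. In the embryonic heart these currents help to shape the first regular beats. The genes described here are the potassium channel genes of the mouse, taken as every gene symbol that starts with Kcn followed by a subfamily letter code and a number. They were 48 of the 15330 genes in the table, from 17 subfamilies, and antisense and overlapping transcripts such as Kcnq1ot1 were left out.

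The libraries came from embryonic hearts dissected at embryonic day 9.5, 3 from wild-type embryos and 3 from embryos homozygous for the deletion H2-URI d/d. CRISPR-Cas9 had been used to remove the 373 kb upstream regulatory interval of Hand2, a bHLH transcription factor of the developing heart. Each genotype had 2 libraries labelled F, read as female (replicates 1 and 2), and 1 labelled M, read as male (replicate 3), all labelled batch 1; no label used here states the strain or how many hearts went into a library. The p-values therefore measure the spread between these libraries, which may be technical. In bulk tissue fewer cells of a type and less RNA per cell cannot be told apart.

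Libraries held 25583210 to 32043595 reads, and all 6 cardiomyocyte markers were abundant, with summed levels of 462667 to 523717 normalized counts in wild-type and 489912 to 535733 in deletion libraries. Values are the authors' normalized counts, which within a library are whole multiples of a fixed step. Hand2, the check on the labels, stood at 3911, 3789 and 4407 normalized counts in the wild-type libraries and at 1025, 1158 and 1163 in the deletion libraries. Columns were given to samples by the code in the sample titles. For 4 samples the recorded file carries a code of the other genotype, and with that record Hand2 was not lower in the deletion (log2 difference 0.57, adjusted p = 1.0, limma).

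Of the 48 channel genes 4 rose in the deletion hearts and 0 fell, at an adjusted p under 0.05 in limma. They were Kcnk3, a two-pore background channel, Kcnh2, the pore of the rapid delayed rectifier current, Kcna5, the pore of the ultrarapid delayed rectifier, and Kcne1, the partner subunit of the slow delayed rectifier. On the log2 scale the differences ran from 0.37 for Kcnh2 to 0.60 for Kcna5. Over all genes tested 3.05% were called in either direction and 1.55% were called higher, against 8.33% of the channel genes called higher. For falls the background was 1.5%. At an unadjusted p under 0.05 in limma 11 of the 48 channel genes passed in either direction, against 21.4% of all genes. Of the 48, 1 was lower at that level, Kcng1, where 11.2% of all genes were. At an adjusted p under 0.05 edgeR and DESeq2 also called 0 lower. On the recovered reads edgeR called the same 4 genes, with 3.26% of all genes called in either direction, and DESeq2 called 6, with 7.89% called.

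The RefSeq promoter table holds 34 of the 48 genes. The 250 bases before the start are shown for the called genes it holds, because bHLH factors such as Hand2 bind E-boxes. Capitals mark each E-box, CANNTG, a motif that reads the same on both strands. The Kcna5 stretch lies at chr6:126535556-126535805 and the Kcnh2 stretch at chr5:24329592-24329841, both on the minus strand of GRCm38.p6, another build than the one the authors name.
Kcna5: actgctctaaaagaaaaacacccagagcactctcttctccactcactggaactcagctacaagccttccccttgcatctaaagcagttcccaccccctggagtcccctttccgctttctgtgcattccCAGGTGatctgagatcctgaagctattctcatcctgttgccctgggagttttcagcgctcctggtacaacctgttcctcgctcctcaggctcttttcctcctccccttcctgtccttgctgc
Kcnh2: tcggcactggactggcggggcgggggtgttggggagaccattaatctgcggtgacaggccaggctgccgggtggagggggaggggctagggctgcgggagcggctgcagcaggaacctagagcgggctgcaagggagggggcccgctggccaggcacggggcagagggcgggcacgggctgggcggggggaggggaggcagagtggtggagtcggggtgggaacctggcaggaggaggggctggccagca
The Kcna5 stretch holds 1 E-box and the Kcnh2 stretch 0. Among all 32851 promoter stretches of this length listed there, 66.2% hold at least 1 E-box, and among the 48 stretches of the channel genes 66.7% do. The Kcnh2 stretch has a GC content of 73.6% and 14 CpG pairs, the Kcna5 stretch 53.2% and 3, and the median over all stretches is 52.4% and 6. A match in these letters is a description of the sequence and not a measured binding site.

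The two-pore gene Kcnk3 encodes an acid-sensitive background channel. It had 527, 625 and 575 normalized counts in the wild-type libraries and 803, 790.1 and 815 in the deletion libraries, or 576 ± 49.4 and 803 ± 12.6 (SD, n = 3). Every deletion library lay above every wild-type library, and the deletion libraries were close to one another. The log2 fold change, taken on log2(normalized count + 1), was 0.48 (SE 0.08, adjusted p = 0.0191, limma). Gm9899, a transcript on the opposite strand, shares 229 exonic bases with Kcnk3 in GENCODE M21. It had 65.6 normalized counts on average in wild-type and 83.3 in deletion libraries. Its groups did not overlap, and it did not pass (adjusted p = 0.322, limma). Without a stated strand mode of counting, reads in the shared bases cannot be assigned to 1 gene of the pair.

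Kcnh2 had the highest level per kilobase of transcript of all voltage-gated pores measured. It stood at 2978, 2945 and 2689.7 normalized counts in wild-type hearts and reached 3721, 3867 and 3525 with the deletion, or 2871 ± 158 and 3704 ± 172 (SD, n = 3; log2 fold change 0.37, SE 0.07, adjusted p = 0.0223, limma). Here too the groups did not overlap, and replicate 3 was the lowest of each group. Kcna5 had 741, 521 and 665 in wild-type libraries and 974, 1019 and 899 in those with the deletion (643 ± 112 and 964 ± 61.1, SD, n = 3; log2 fold change 0.60, SE 0.12, adjusted p = 0.0344, limma). Its wild-type libraries were spread more widely than its deletion libraries, and they stayed below them. Kcne1 had 302, 289 and 293 in wild-type libraries and 415, 403 and 379 in those with the deletion (295 ± 6.59 and 399 ± 18.2, SD, n = 3; log2 fold change 0.44, SE 0.09, adjusted p = 0.0382, limma). For each of these 4 genes, permuting the 6 libraries (exact, two-sided) gave p = 0.1, the smallest that 3 against 3 allows.

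**Figure D1:**
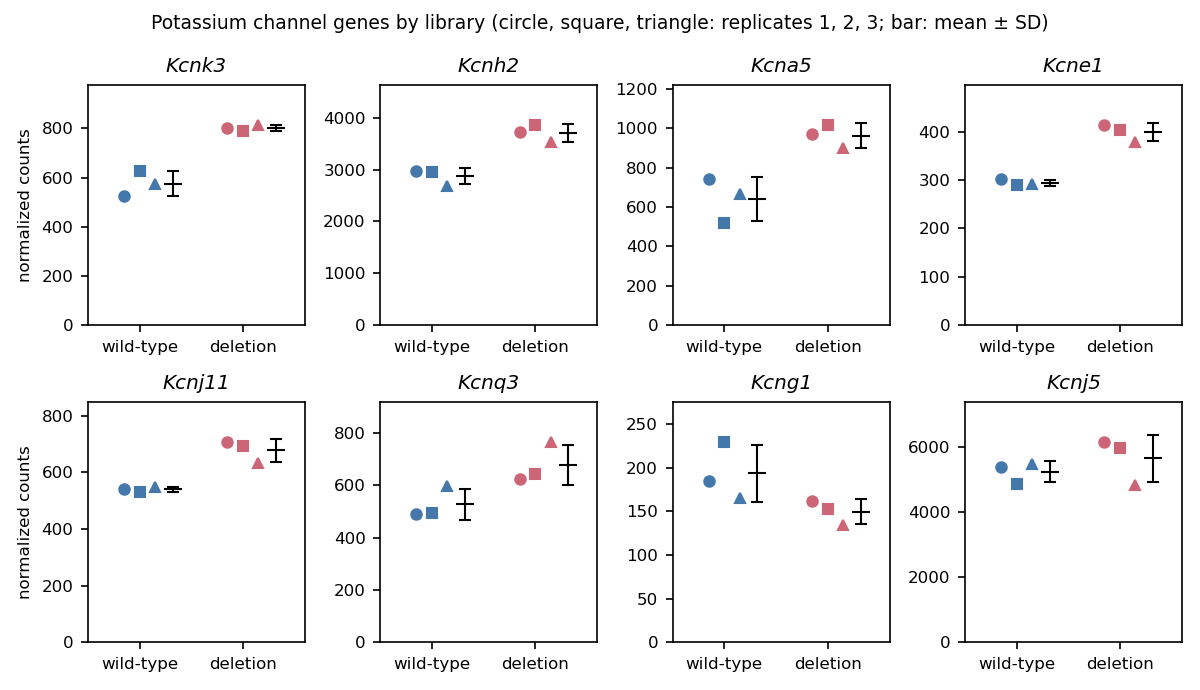
Normalized counts (vertical axes, from 0) of 8 potassium channel genes in the wild-type (blue) and deletion (red) libraries; circles, squares and triangles are replicates 1, 2 and 3, and the bars give the mean ± SD of 3 libraries. In the upper row, Kcnk3, Kcnh2, Kcna5 and Kcne1, all deletion libraries sit above all wild-type libraries, while for Kcnj5 the deletion libraries at 6145, 5967 and 4819 overlap the wild-type libraries.

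The 4 calls kept their direction in all 22 alternatives that keep the groups. Without wild-type replicate 3, deletion replicate 1, deletion replicate 2 or deletion replicate 3 the number called was 0, with adjusted p from 0.0603 to 0.169. Calls over all genes also fell in these fits, from 467 to 168, 138, 103 and 165. In these fits the log2 fold changes were 0.56 to 0.65 for Kcna5 and 0.47 to 0.49 for Kcnk3. They were 0.41 to 0.47 for Kcne1 and 0.32 to 0.40 for Kcnh2. Over all fits with 1 library left out they ran from 0.45 to 0.71 for Kcna5 and from 0.42 to 0.54 for Kcnk3. Without wild-type replicate 1 or 2 all 4 genes passed, with 616 and 1161 calls over all genes. When each library was corrected for its dependence on transcript length and GC, Kcna5 passed (log2 fold change 0.55, adjusted p = 0.0336, limma), and Kcne1 (0.39, adjusted p = 0.0512), Kcnk3 (0.34, adjusted p = 0.0852) and Kcnh2 (0.19, adjusted p = 0.0865) did not, where 3.24% of all genes were called. The longest transcripts of Kcnh2 and Kcnk3 have a GC content of 61.3% and 59.1%, those of Kcna5 and Kcne1 54.3% and 53.2%, and the median over all genes is 49.7%. Fitted without an intensity trend in the variance, 0 of the channel genes passed, with 146 calls over all genes, and with sex as a covariate Kcnh2 and Kcnk3 did, with 346.

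**Figure D2:**
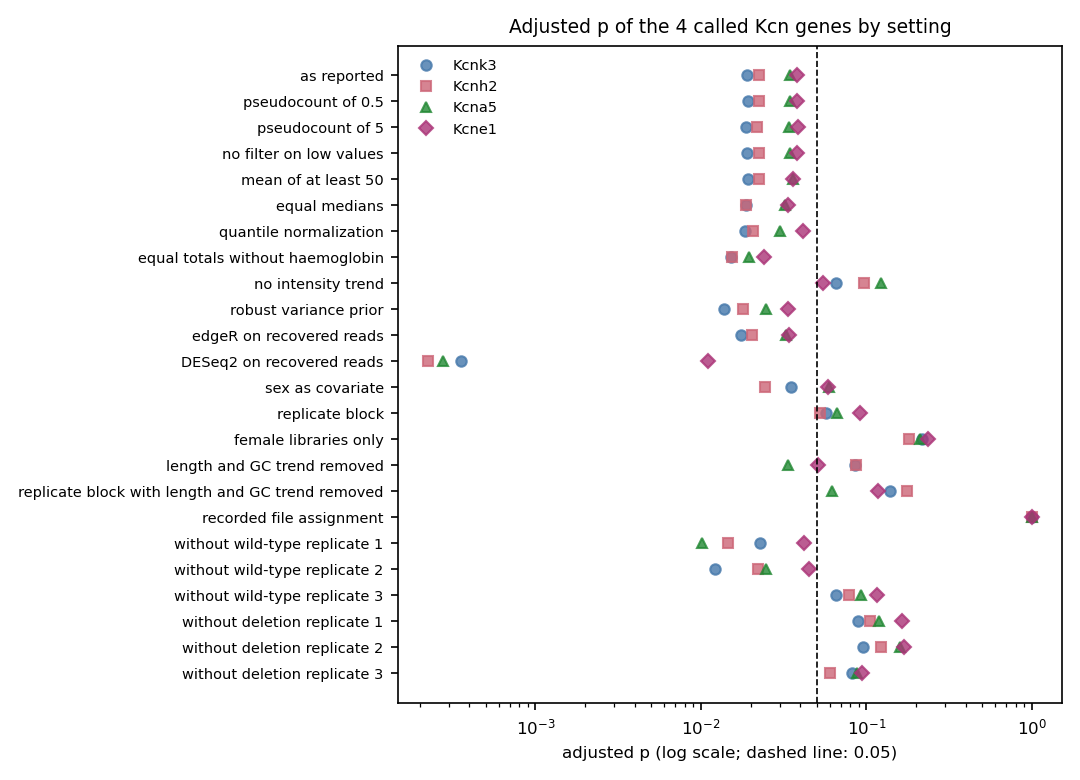
Adjusted p (horizontal axis, log scale, dashed line at 0.05) of Kcnk3, Kcnh2, Kcna5 and Kcne1 as reported and under each alternative (rows). All 4 genes lie left of the line under every pseudocount, filter and rescaling setting, and right of it without wild-type replicate 3 or without any 1 deletion library.

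Levels between genes were compared per kilobase of the longest annotated transcript. Kcnj5, a subunit of the acetylcholine-activated channel of atrium and pacemaker tissue, was the highest, at 1117 ± 69.7 normalized counts per kb in wild-type hearts against 1205 ± 154 per kb with the deletion (SD, n = 3). Kcnh2 followed at 680.2 ± 37.4 and 878 ± 40.7, and the silent subunit gene Kcng2 was next at 427 ± 50.5 and 456 ± 46.3. Kcnmb1, the beta subunit of the large-conductance calcium-activated channel, had 248 ± 25.7 per kb in wild-type hearts and Kcna5 had 225 ± 39.0, a gap within their spread. In deletion hearts Kcna5 stood at 337 ± 21.4 per kb and Kcnmb1 at 268 ± 16.6. Kcnma1, the large-conductance calcium-activated pore, was among the lowest, with 3.15 normalized counts per kb in wild-type and 3.59 in deletion hearts.

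**Figure D3:**
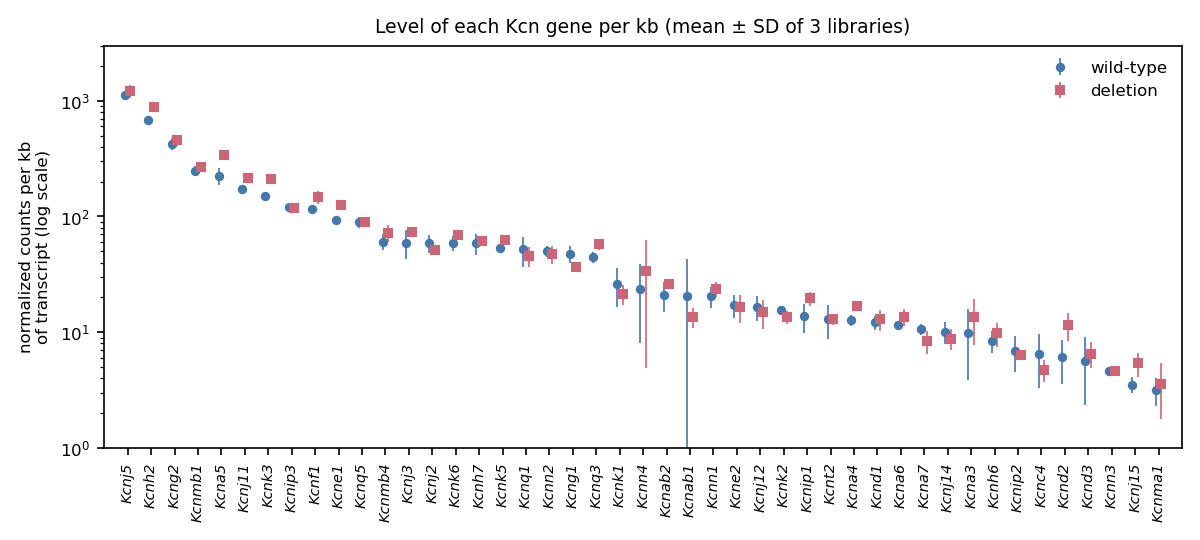
Normalized counts per kb of the longest transcript (vertical axis, log scale) for 45 of the 48 potassium channel genes, ordered by the wild-type mean; blue circles are wild-type and red squares deletion means, with bars of 1 SD over 3 libraries. Levels drawn run from 1117 per kb for Kcnj5 to 3.15 for Kcnma1 in wild-type hearts, and the wild-type bar of Kcnab1 reaches below the axis.

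Together the 48 genes took 0.0621%, 0.0625% and 0.0637% of all reads in the wild-type libraries and 0.0770%, 0.0767% and 0.0700% in the deletion libraries. Every deletion library thus lay above every wild-type library. Kcnj5 and Kcnh2 made up 42.5% to 46.3% of these reads in each library. Without the 4 called genes the share was 0.0465%, 0.0471% and 0.0493% in wild-type libraries. Deletion replicates 1 and 2 then stood at 0.0560% and 0.0550%, and deletion replicate 3 stood at 0.04996%, just above wild-type replicate 3. Median log2 fold changes were 0.13 over the channel genes and −0.01 over all genes tested, and 33 of the 48 channel genes had a value above 0, as had 7424 of 15330 genes. With the length and GC correction these medians were 0.10 and −0.02. With 1 library left out the channel median ran from 0.07 without deletion replicate 1 to 0.21 without deletion replicate 3. The groups did not overlap for 12 channel genes, or 25.0%, against 27.4% of all genes. The deletion libraries were above for 11 of the 48, or 22.9%, against 12.9% of all genes. They were below for 1 of the 48, Kcng1, or 2.08%, against 14.5% of all genes.

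Voltage-gated alpha subunits numbered 18, of which Kcnh2 and Kcna5 rose, 0 fell and 16 did not pass (median log2 fold change 0.29). Kcnq3, a subunit of the M-type current known from neurons, had 491, 495 and 597 normalized counts in wild-type libraries and 625, 644 and 766 in those with the deletion (528 ± 59.9 and 678 ± 76.3, SD, n = 3; log2 fold change 0.36, SE 0.11, adjusted p = 0.104, limma). Its groups did not overlap, although deletion replicate 1 at 625 lay close to wild-type replicate 3 at 597. DESeq2 on the recovered reads called Kcnq3 (adjusted p = 0.0486), and edgeR did not (adjusted p = 0.0996). Nor did limma with the length and GC correction (log2 fold change 0.29, adjusted p = 0.169).

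Kcnq5, Kcnq1 and Kcnh7 did not pass. Kcnq5 had 622 ± 71.9 and 625 ± 34.1 normalized counts (SD, n = 3; log2 fold change 0.01, 95% interval −0.21 to 0.23). Kcnq1, the pore to which Kcne1 binds, had 146, 118 and 207 in wild-type libraries and 159, 108 and 146 in those with the deletion (log2 fold change −0.17, 95% interval −0.67 to 0.33). Kcnh7, a relative of Kcnh2, had 779.9 ± 156 and 819 ± 53.5 (log2 fold change 0.09, 95% interval −0.22 to 0.40). Gca, a gene on its opposite strand, shares 696 exonic bases with it.

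Kcnd2, Kcnd3 and Kcna4 are pores of the transient outward current, which makes the early notch of the action potential, and none passed. Kcnd2 had 19.3, 29.4 and 44.8 normalized counts in wild-type libraries and 62.3, 41.8 and 73.4 in those with the deletion (31.2 ± 12.9 and 59.2 ± 16.1, SD, n = 3). Its log2 fold change of 0.94 was the largest of all channel genes, and it did not pass (SE 0.33, adjusted p = 0.144, limma), with deletion replicate 2 below wild-type replicate 3. Kcnd1, the highest of this subfamily per kb, had 64.3 ± 8.69 and 68.4 ± 14.6 (log2 fold change 0.07, 95% interval −0.41 to 0.56). Kcnd3 had 40.8 ± 23.9 and 46.8 ± 11.8, and Kcna4, another pore of this current, 60.9 ± 6.63 and 80.0 ± 5.63 (adjusted p = 0.234, limma). Kcna3, Kcna6, Kcna7, Kcnc4 and Kcnh6 had wild-type means from 18.9 to 66.7 and log2 fold changes from −0.35 to 0.48.

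Silent subunits form no pore alone and change the voltage gating of other channels. Of these 3 genes 0 passed. Kcnf1 had 594, 528 and 551 normalized counts in wild-type libraries and 688, 804 and 618 in those with the deletion (log2 fold change 0.33, SE 0.11, adjusted p = 0.117, limma). Kcng2 had 1200.5 ± 142 and 1283 ± 130.4 (SD, n = 3; log2 fold change 0.10, 95% interval −0.13 to 0.33). Kcng1 went the other way, with 185, 229.5 and 166 in wild-type libraries and 161, 153 and 134 in those with the deletion (log2 fold change −0.36, SE 0.15, adjusted p = 0.215, limma). Deletion replicate 1 of Kcng1, at 161, lay just under the lowest wild-type library at 166.

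Inward rectifiers, which hold the resting potential, numbered 7, and 0 passed (median log2 fold change 0.10). Kcnj11, the pore of the ATP-sensitive channel that opens when cellular ATP is low, came nearest, with 540.3, 529 and 549 normalized counts in wild-type libraries and 707, 694 and 632 in those with the deletion (539.6 ± 9.91 and 678 ± 40.2, SD, n = 3; log2 fold change 0.33, SE 0.08, adjusted p = 0.0606, limma). The wild-type libraries were tightly grouped and all lay below the deletion libraries. DESeq2 called Kcnj11 (adjusted p = 0.0268), as did limma with libraries scaled to the same total outside haemoglobin genes, and edgeR did not (adjusted p = 0.0546). Nor did limma with the length and GC correction (log2 fold change 0.23, adjusted p = 0.177) or with sex as a covariate (adjusted p = 0.0868). Its regulatory partner genes, the sulfonylurea receptors, did not pass, with 3921 and 3953 normalized counts for Abcc9 and 74.6 and 109.7 for Abcc8 in wild-type and deletion hearts.

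Kcnj5 and Kcnj3 together build the acetylcholine-activated channel. Kcnj5 had 5381, 4861 and 5463 normalized counts in wild-type libraries and 6145, 5967 and 4819 in those with the deletion (log2 fold change 0.10, 95% interval −0.11 to 0.32). Kcnj3 had 234, 290.0 and 406 in wild-type libraries and 366, 374 and 414 in those with the deletion (310.1 ± 88.0 and 385 ± 25.4, SD, n = 3; log2 fold change 0.35, SE 0.18, adjusted p = 0.293, limma). Wild-type replicate 3 of Kcnj3 lay among the deletion libraries. Kcnj2, the main pore of the cardiac inward rectifier current, had 320.4 ± 57.3 and 279 ± 6.54 (log2 fold change −0.19, 95% interval −0.48 to 0.11). Kcnj12, its close relative, had 40.9 ± 10.1 and 36.5 ± 10.3, and Kcnj14 and Kcnj15 had wild-type means of 26.9 and 20.1.

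The other two-pore genes had smaller differences than Kcnk3. Kcnk6 had 240.1 ± 34.6 and 284 ± 9.15 normalized counts (SD, n = 3; log2 fold change 0.25, 95% interval −0.03 to 0.53) and Kcnk5 179.6 ± 16.0 and 213 ± 19.1 (0.25, −0.04 to 0.53). Kcnk2, a stretch-sensitive channel, had 55.2 ± 4.53 and 48.4 ± 6.55, and Kcnk1 58.3 ± 21.3 and 47.6 ± 9.08. Neither of the last pair passed, and both intervals included 0. No difference between Kcnk3 and the other members of its subfamily was tested.

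Channels gated by internal calcium or sodium numbered 6, and 0 passed (median log2 fold change 0.07). Kcnn2, a small-conductance channel known from atrial muscle, had 184 ± 19.9 and 174 ± 31.8 normalized counts (SD, n = 3; log2 fold change −0.09, 95% interval −0.46 to 0.27), and Kcnn1 had 82.4 ± 16.8 and 95.2 ± 14.4 (0.21, −0.23 to 0.66). Kcnn3 had 38.4 in both groups, Kcnma1, the large-conductance pore, 38.1 and 43.5, and Kcnt2 74.6 and 75.1. Kcnn4, the intermediate-conductance channel of red blood cells, varied most of the channel genes, from 20.1 in deletion replicate 1 to 230.0 in deletion replicate 3. The order of the 6 libraries by Kcnn4 was the order by the share of haemoglobin reads, which ran from 0.298% in deletion replicate 1 over 0.404% (wild-type replicate 3), 0.702% (wild-type replicate 1), 0.762% (deletion replicate 2) and 1.22% (wild-type replicate 2) to 1.59% in deletion replicate 3. This pairing was looked at after the Kcnn4 values had been seen. The groups overlapped in both measures, and the log2 fold change of Kcnn4 was 0.14 (95% interval −1.57 to 1.85).

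**Figure D4:**
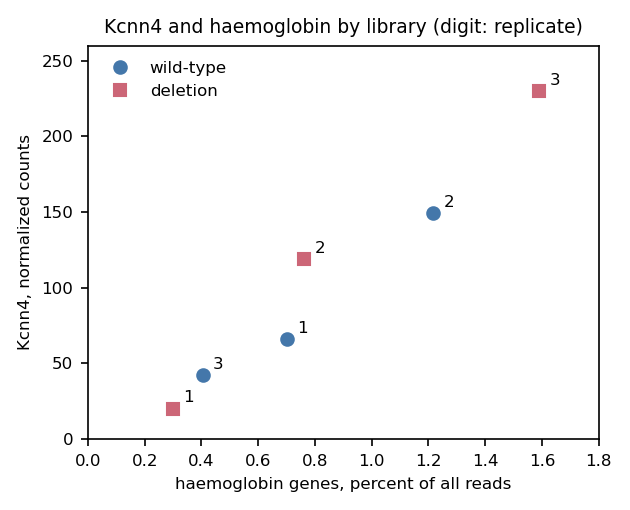
Kcnn4 normalized counts (vertical axis) against the share of all reads from haemoglobin genes (horizontal axis, percent) in the 6 libraries; blue circles are wild-type, red squares deletion, and digits are replicate numbers. The libraries stand in the same order on both axes, from 20.1 normalized counts at 0.298% to 230.0 at 1.59%, with both genotypes interleaved.

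Auxiliary subunits numbered 9, of which Kcne1 rose and 8 did not pass (median log2 fold change 0.11). Kcne2, which can accompany Kcnh2, had 28.8 ± 6.32 and 27.7 ± 7.43 normalized counts (SD, n = 3). Kcnmb1 had 1077, 919.8 and 1126 in wild-type libraries and 1201, 1095 and 1070.2 in those with the deletion (log2 fold change 0.11, 95% interval −0.09 to 0.32), and Kcnmb4 had 98.8 ± 15.1 and 117 ± 19.1 (0.24, −0.16 to 0.65). Of the calcium-binding subunits that accompany the transient outward pores, Kcnip3 had the highest level per kb and stood at 327 ± 12.8 and 325 ± 27.1 (log2 fold change −0.01, 95% interval −0.24 to 0.22). Kcnip1 had 56.1 ± 16.2 and 80.6 ± 11.4 (log2 fold change 0.54, SE 0.24, adjusted p = 0.222, limma), and Kcnip2, the subunit of the adult ventricular current, 21.4 ± 7.36 and 19.6 ± 1.10.

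Kcnab2, a cytoplasmic beta subunit, had 82.7 ± 24.3 and 103 ± 5.89 (SD, n = 3; log2 fold change 0.36, SE 0.21, adjusted p = 0.367, limma). Its relative Kcnab1 rested on 1 library for its wild-type mean, with 27.2, 205 and 40.3 normalized counts in wild-type libraries and 54.9, 50.1 and 72.4 in those with the deletion. Wild-type replicate 2 was far above all the others. Kcnf1, Kcnn4 and Kcnab1 were singled out after their values had been seen.

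**Figure D5:**
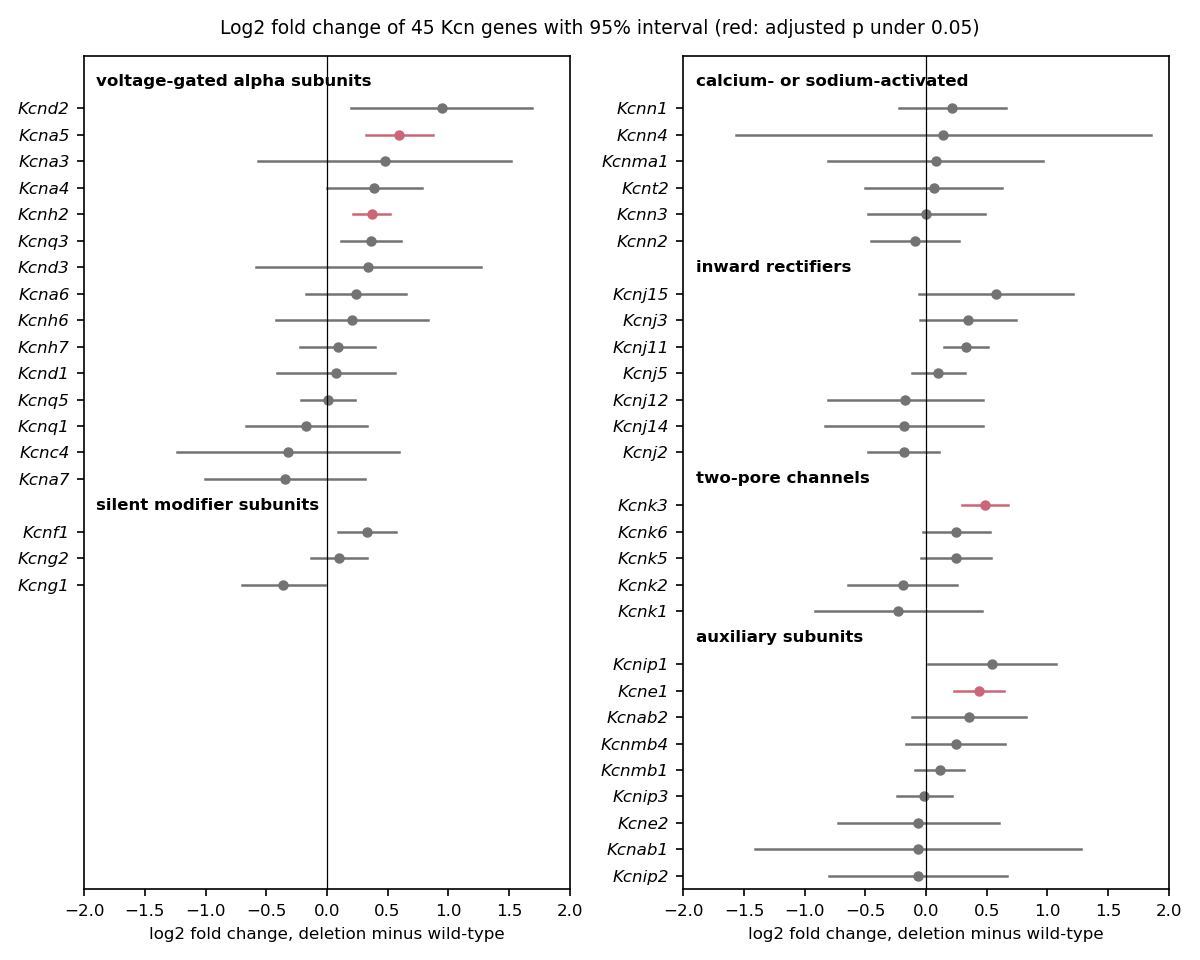
Log2 fold change (horizontal axes, deletion minus wild-type) of 45 of the 48 potassium channel genes with 95% intervals from limma, grouped by role; red marks an adjusted p under 0.05. The 4 red genes lie between 0.37 and 0.60, and Kcng1, at −0.36, has the lowest value.

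A pore and its partner need not move together, so 5 known pairs were compared within each library. The ratio of Kcne1 to Kcnq1 normalized counts was 2.06, 2.44 and 1.42 in wild-type libraries and 2.60, 3.74 and 2.60 in those with the deletion. The groups did not overlap, and the exact two-sided permutation test gave p = 0.1, the smallest possible, or 0.5 after Benjamini-Hochberg adjustment over the 5 pairs. For Kcnj5 over Kcnj3 the mean ratio was 17.7 ± 4.86 in wild-type and 14.8 ± 2.75 in deletion libraries (SD, n = 3; exact permutation p = 0.5). Kcne2 over Kcnh2, Kcnmb1 over Kcnma1 and Kcnip2 over Kcnd3 also overlapped, with exact permutation p of 0.3, 0.8 and 0.8. Ratios within a pair depend on transcript length and are compared only between genotypes.

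Grouped by the cardiac current they are known for, 19 of the 48 genes were listed. All 4 called genes were among them, where 1.55% of all genes were called higher. The grouping was made with earlier results of these data known. The listed genes had a median log2 fold change of 0.21 and the other 29 a median of 0.11. In the groups of the slow delayed rectifier, the rapid delayed rectifier and the two-pore background current 1 of 2 genes rose, and Kcna5 was the single gene listed for the ultrarapid current. The transient outward (4 genes), inward rectifier (2), acetylcholine-activated (2), ATP-sensitive (1) and small-conductance (3) groups had 0 calls. Whether the calls differ between listed and other genes was not tested.

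Genes that work beside these channels were taken from hand-made lists. Of 12 measured channel partners, which anchor, traffic or regulate the pores, 0 passed (4 at an unadjusted p under 0.05 in limma, where 21.4% of all genes were; median log2 fold change 0.09). Akap5, an anchor of protein kinase A, had 2973 and 3617 normalized counts in wild-type and deletion hearts (log2 fold change 0.29, adjusted p = 0.0715, limma), and Cav3, a muscle caveolin, 301 and 236 (−0.35). Of 14 measured potassium pumps and cotransporters 0 passed (5 at an unadjusted p under 0.05, against the same 21.4%; median 0.03). Fxyd5, a pump regulator, had 289.8 and 183 normalized counts in wild-type and deletion hearts (log2 fold change −0.66, adjusted p = 0.0598, limma).

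Markers of cell types were measured in the same libraries, and their part in the channel results was not tested. For cardiomyocytes 0 of 6 markers passed, and the summed ranges of the groups given above overlap. Every deletion library lay above every wild-type library for 3 of these 6, Actn2, Myh6 and Myh7, against 12.9% of all genes. The list did not move as 1, since 2 of the 6 had a log2 fold change below 0, the lowest −0.22. Myh6, the alpha myosin heavy chain, had 111876 normalized counts on average in wild-type and 136594 in deletion hearts (log2 fold change 0.29, adjusted p = 0.159, limma), and Myh7, the beta chain, 155207 and 175705 (0.18). For primitive red cells 0 of 5 passed, with summed levels of 116933 to 340758 normalized counts in wild-type and 82619 to 439071 in deletion libraries. Among 6 endothelial and endocardial markers Kdr rose and Tek fell, with sums of 17990 to 19094 and 18742 to 19172. These sums add markers that went in opposite directions. At an unadjusted p under 0.05 in limma 3 of the 6 passed, against 21.4% of all genes. Of the 6, 2 were lower at that level, where 11.2% of all genes were. Among 4 markers of smooth muscle and pericytes Pdgfrb fell. For neural tissue and neural crest 5 of 10 markers were measured and 0 passed, with sums of 570 to 641 and 585 to 631. Atrial and inflow markers, added after the channel values had been seen, had sums of 83585 to 109170 and 91012 to 101163, and ventricular markers 258695 to 285512 and 265987 to 294228, with 0 of 6 calls in each list and 2 and 1 genes, respectively, whose deletion libraries all lay above. Such sums follow the most abundant genes of a list. Of the 6 atrial and inflow markers 3 were higher at an unadjusted p under 0.05 in limma, where 21.4% of all genes were in either direction. Of the 6 ventricular markers 0 were. Their median log2 fold changes were 0.18 and 0.08, with 2 of 6 markers below 0 in each list. Epicardial markers summed to 1207 to 2020 in wild-type and 1739 to 2912 in deletion libraries, with 0 of 4 calls. Of these 4, 2 were higher at an unadjusted p under 0.05 in limma, and 1 had a log2 fold change below 0. The pharyngeal and foregut, liver and macrophage lists, with 5, 3 and 1 markers measured, also had 0 calls. At an unadjusted p under 0.05 in limma 1 pharyngeal or foregut marker was higher and 1 liver marker lower.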

How the data were processed

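Per the labels' protocols, 300 ng of total RNA per replicate went into strand-specific mRNA libraries. The submitters' processing notes list, without roles, STAR 2.7.9a, bcl2fastq 2.20, featureCounts, Subread 2.0.1 and DESeq2 1.30.1, with GRCm39 and mm39 as builds. No source used here gives the annotation, strand setting or gene filter. The deposited signal values are the authors' normalized counts, 1 column per library. Within a library they were whole multiples of 1 step for 100% of values (tolerance 0.01), from which reads were recovered for edgeR 4.0.16 (499 genes called) and DESeq2 1.42.0 (1139). The other 5 files repeat columns of the table.

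The test was limma-trend (R 4.3.3, limma 3.58.1) with pseudocount 1 over all 15330 genes. A minimum mean of 10 removed 0 genes. Tests were two-sided with Benjamini-Hochberg adjustment, and intervals are 95% limma intervals. Counts were simulated for all 15330 genes, with 200 genes changed in each of 5 runs. The test recovered 61.8% of 1.5-fold, 83.0% of 2-fold and 96.7% of 4-fold changes, and 7.69% of calls were false. The changed genes were drawn at random from all genes, and recovery was pooled over all levels. The rates are therefore not specific to the channel genes, of which 24 had under 50 reads in at least 1 library. No change below 1.5-fold was simulated. The ratios of means of Kcnh2, Kcne1 and Kcnk3 were 1.29, 1.35 and 1.39, so these recovery rates do not cover them. Genes named in full were members past the threshold, the 3 next by p, and in each subfamily of 2 or more members the highest per kb and the largest log2 fold change at a mean of at least 50 in the higher group. Values of 3 members, and of 1 listed gene, are not reported here, although counts and medians over the lists include them. Members and lists were chosen with earlier results of these data known. Lengths, GC content and overlaps come from GENCODE M21 (longest transcript), and a length was found for 48 members.

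Alternatives covered pseudocount, filter, scaling, variance model, tool, sex, replicate block, length and GC, the recorded file assignment and each library left out. Deviations of same-numbered libraries from their group means correlated at −0.03, −0.12 and −0.14, and those of differently numbered libraries at −0.16 to 0.25. With 3 libraries a group, these values cannot decide whether the numbers pair the samples.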

Additional observations from a re-analysis of the deposited data

How the results depend on the processing

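The number of channel genes called higher was 4 and stayed between 4 and 6 under the pseudocount, filter, rescaling, robust variance, edgeR and DESeq2 settings. It was 2 with sex as a covariate and 1 with the length and GC correction. It was 0 without an intensity trend, in the female libraries only, and with the recorded file assignment, where calls over all genes numbered 146, 35 and 0 against 467. With each library left out it ran from 0 to 4. With the replicate block it was 0 (206 calls over all genes), and 0 with the replicate block and the length and GC trend removed (293). Whether the replicate numbers pair the samples is not known. No alternative called a channel gene lower. With the recorded file assignment the log2 fold changes reversed, to −0.31 for Kcna5, −0.19 for Kcne1, −0.11 for Kcnh2, −0.15 for Kcnk3 and 0.57 for Hand2; that setting exchanges 4 libraries between the groups. The cause of the other changes was not tested, and the settings with fewer libraries or more terms leave fewer degrees of freedom.

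Depth limits the low members: 24 of the 48 had under 50 reads in at least 1 library, and the lowest count of a member was 12 reads. A sex by genotype term passed for 0 channel genes in limma (5 at an unadjusted p under 0.05), with 1 male library a group.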

Other observations

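Outside the naming rule, 2 further table rows start with Kcn. Kcnq1ot1, the imprinted antisense transcript of Kcnq1, had 415, 1206 and 695 normalized counts in the wild-type libraries against 937, 1068 and 1085 with the deletion, with overlapping groups (log2 fold change 0.55, adjusted p = 0.324, limma). It shares 121 exonic bases with Kcnq1 on the opposite strand. Kcne1l, a gene of the Kcne family, had 36.3, 26.7 and 30.2 in the wild-type libraries against 47.5, 39.9 and 61.6 with the deletion, without overlap (log2 fold change 0.65, adjusted p = 0.172, limma).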
